A study of Mus musculus with 4 samples.

Results

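Translation initiation and elongation factors were described over 4 Affymetrix arrays of mouse embryonic stem cells. Members were the genes whose symbol in the platform annotation starts with Eif or Eef followed by a digit. Only probe sets assigned to 1 gene were taken, and Eif2s3x and Eif2s3y were left out. The rule goes by gene names, and it found 64 probe sets for 47 genes, of 10833 probe sets and 8251 genes in all.

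The cells were E14tg2a, a mouse line kept without feeder cells. Akt cells expressed a constitutively active Akt (titled Akt12), and control cells are labelled only as controls. Each line was sampled after 4 days without leukemia inhibitory factor (LIF), the cytokine that keeps such cells undifferentiated, and in medium with 3000 U/ml of it, which makes 4 groups. Each group had 1 array, so no difference between 2 arrays has a replicate check. The labels and protocols do not give the promoter of the Akt transgene, which Akt it encodes, whether 12 names a clone or whether controls carry a vector. A difference between 1 clone and its parent line therefore cannot be told apart from an effect of Akt.

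Initiation factors bring the initiator tRNA, the small ribosomal subunit and a capped mRNA together at a start codon, and elongation factors deliver each next tRNA and move the ribosome along. Akt acts on this machinery through mTORC1, a kinase complex that phosphorylates the 4E-binding proteins (4E-BPs) and so frees the cap-binding protein eIF4E. Stress kinases act at another point, by phosphorylating eIF2 and blocking its recharging by eIF2B, which favours translation of the transcription factor ATF4. Embryonic stem cells are known to keep protein synthesis low and to raise it on differentiation. The arrays measured mRNA levels, which carry no information on phosphorylation or on rates of translation.

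All intensities given here are quantile normalized, which gives the 4 arrays the same distribution of values. They carry a floor of 15.8, the 40th percentile of all values, below which levels have no order. Where a gene had several probe sets, the one of highest mean log2 intensity stood for it. Levels of different genes are not compared, because each probe set has its own response. Between 5625 and 5659 genes lay above the floor on each array. Of the 47 members, 39 lay above it on all 4 arrays, 4 on 1 or 2 arrays, and 4 on none. The last 4 were Eef1g, Eef2k, Eif4enif1 and Eif4h. Eef1g and Eif4h encode general translation factors, so the floor there describes a probe set and not the absence of the gene.

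The labelled cell type was checked first, because its markers moved with the groups. All 10 embryonic stem cell markers, among them Pou5f1, Nanog and Sox2, were above the floor on all 4 arrays. Their summed intensity was 8801 without and 12986 with LIF in Akt cells, against 4711 without and 11819 with LIF in control cells. In the same order, trophoblast markers summed to 750, 637, 2176 and 739 over 5 genes, and fibroblast markers to 332, 324, 591 and 285 over 8 genes. Mesoderm markers summed to 141, 75.3, 994 and 268 over 3 genes, endoderm markers to 424, 255, 338 and 122 over 6 genes, and neural markers to 658.5, 624, 586 and 771 over 5 genes. A few bright genes carried some of these sums. Krt8, Krt18 and Krt19 made up most of the trophoblast sum in control cells without LIF (768, 627 and 538). Cdx2 was near the floor there at 17.95, and Tfap2c had its lowest value there at 226. In Akt cells the endoderm marker Dab2 read 283 without and 75.4 with LIF, whereas Gata4, Gata6 and Sox17 were lower without LIF. Acta2 made up 903.5 of the mesoderm sum of 994 in control cells without LIF, where Kdr was at the floor and Hand1 read 75.2. Tubb3 made up most of the neural sum and was lowest in control cells without LIF at 360.0, where Nes was highest at 178.6. Col3a1, Dcn, Lum and Postn, among the fibroblast markers, did not exceed the floor in either Akt sample. Postn was at the floor on all 4 arrays, and Lum reached only 15.9, in control cells without LIF. Col1a2 read 161, 157, 177 and 127 in the order of the sums, and Col1a1 read 42.0, 40.45, 112 and 46.6. Thy1 was higher in Akt cells (47.7 without and 46.2 with LIF) than in control cells (27.6 and 31.65). Vim was near or at the floor on all 4 arrays. The actin 3′ to 5′ ratio, a measure of RNA integrity, was 2.48, 3.04, 1.66 and 2.33 in that order, lowest in control cells without LIF. The same ratio for Gapdh was 2.46, 3.05, 3.19 and 3.03, highest in control cells without LIF, so these measures of integrity did not order the arrays alike. The part of these differences in the members' results was not tested, and in bulk RNA fewer cells of a type and less RNA per cell cannot be told apart.

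LIF withdrawal moved the translation factors little in most single cases, and in Akt cells somewhat more of them lay higher than lower. In all, 40 members were measured (at least 1 of the pair of arrays exceeded the floor). Of these, 24 had a higher value in Akt cells without LIF than with LIF and 16 a lower one. Of 5945 genes on the whole array, 3032 were higher and 2901 lower. The median log2 difference was 0.18 over the members and 0.01 over all genes. Eef1a2 and Eef1akmt1 were at least 2-fold higher and no member was 2-fold lower, where 3.01% and 3.65% of all genes were. At 1.5-fold, 3 members were higher and 2 lower, against 10.8% and 10.7% of all genes. The 2-fold calls turned with the scaling. Scaled to the hybridization controls (labelled RNAs added to each sample), none was 2-fold higher and 2 were 2-fold lower, Eif2s2 at -1.23 and Eif4ebp1 at -1.14, while Eef1a2 was at 0.81 and Eef1akmt1 at 0.85.

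In control cells most translation factors lay slightly lower after LIF withdrawal. Of 43 members measured, 37 had a lower value in control cells without LIF than in control cells with LIF, and 6 a higher one. Of all 5984 genes, 3099 were lower and 2880 higher. The members' median log2 difference was -0.33, against -0.03 over all 5984 genes, and -0.35 over the 39 members above the floor on every array. Only Eif2s2 was at least 2-fold lower, and no member was 2-fold higher. Over all genes, 6.4% were 2-fold lower and 7.39% were 2-fold higher. At 1.5-fold, 10 members were lower and 3 higher, where 17.8% and 16.4% of all genes were. Most of the members' differences were thus small and shared a sign. Without the regulators that the name rule also takes in (kinases, 4E-binding proteins and a methyltransferase), the medians were 0.18 over 34 genes in Akt cells and -0.33 over 36 genes in control cells.

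**Figure D1:**
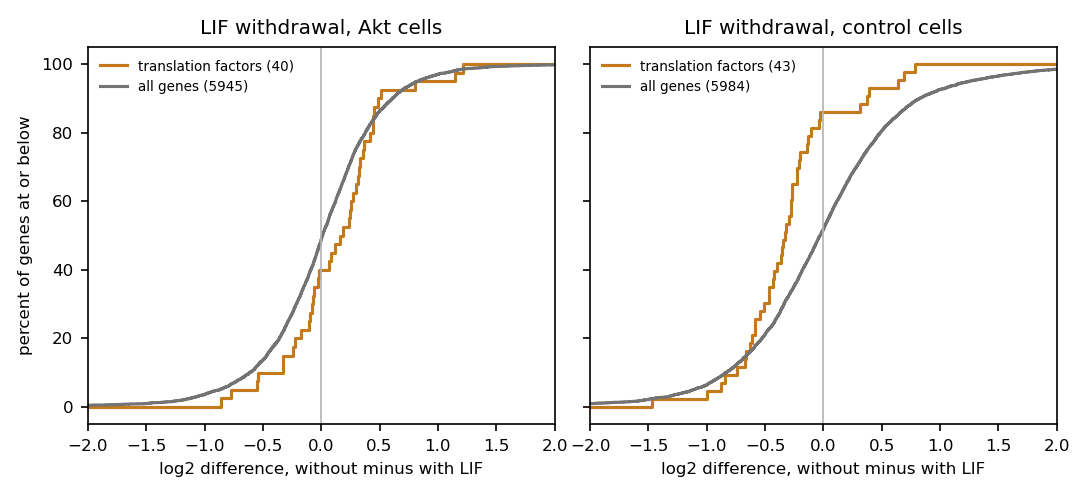
Cumulative percent of genes (vertical axis) at or below each log2 difference between the array without LIF and the array with LIF (horizontal axis, shown from -2 to 2), for Akt cells on the left and control cells on the right. The orange line holds the translation factor genes (40 and 43) and the grey line all genes (5945 and 5984). In control cells the orange line lies left of the grey one around 0, with 37 of 43 members below 0. Of all genes, 3099 of 5984 were below 0 there.

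The lines' LIF responses use separate arrays, so they could be set against each other without a shared sample. Of the 39 members above the floor on all 4 arrays, 21 were above 0 in Akt cells and below 0 in control cells, where 25.8% of 5027 genes were. With each response beyond the SD between probe sets of 1 gene (0.38 and 0.46), 4 of 40 members had these signs, where 4.5% of 5671 genes did. The opposite signs were had by 0 members, where 2.84% of genes had them. These sign counts hold for quantile normalization and depend on where 0 lies in Akt cells. Scaled to the hybridization controls, the members' median there was -0.15, against 0.18 with quantile normalization. The median difference of responses, Akt cells minus control cells, was 0.56 in log2 over 40 members and 0.04 over 5671 genes. The difference was positive in 33 members and negative in 7, and of the 5671 genes it was positive in 2943 and negative in 2728. At 2-fold, 5 members lay above and 1 below, where 10.1% and 8.87% of all genes did. At 1.5-fold, 16 lay above and 1 below, where 22.4% and 19.1% of all genes did. The difference of responses has no residual error with 4 arrays and was not tested.

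Of those 39 members, Akt cells without LIF had the lowest value for 5 and the highest for 12 (15.9% and 19.8% of all genes), and Akt cells with LIF the lowest for 11 and the highest for 11 (25.5% and 29.0%). Control cells without LIF held the lowest value of 22 members and the highest of 2, where this array was lowest in 38.2% of all genes and highest in 29.8%. Control cells with LIF were lowest for 1 member and highest for 14, where 20.4% and 21.4% of all genes were. The members are mostly bright, and 34 of 47 had a mean intensity of 100 or more. Those 34 had a median response to LIF withdrawal of 0.18 in Akt cells, where all 2688 genes of that brightness had 0.03. In control cells the 34 had -0.34 and the 2688 had -0.09.

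Between the lines, members were mostly higher in Akt cells without LIF and mostly lower in Akt cells with LIF, each against control cells in the same medium. Without LIF, 34 of 43 were above 0, with a median of 0.33 against 0.06 over 6009 genes. Of those 6009 genes, 3307 were above 0. Eef1a2, Eif2s2 and Eif2d were at least 2-fold higher and Eif4g3 was 2-fold lower, where 5.87% and 8.12% of all genes were. At 1.5-fold, 9 were higher and 1 lower (16.7% and 15.0% of all genes). With LIF, 27 of 40 were below 0, with a median of -0.21 against 0.01 over 5938 genes. Of those 5938 genes, 2923 were below 0. Eef1a2 was 2-fold higher, and Eif5 and Eef1akmt1 were 2-fold lower, where 3.5% and 3.64% of all genes were. At 1.5-fold, 3 were higher and 6 lower (11.5% and 11.8% of all genes). These comparisons share arrays with the LIF responses above and add no independent measurement.

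An additive limma fit over the 4 arrays, with 1 coefficient for the cell line and another for LIF, was the only test the design allowed. It used 1 residual degree of freedom, took the difference between the lines' responses as error, and adjusted p-values over 6258 genes (Benjamini-Hochberg). No member passed an adjusted p of 0.05 for LIF, where 0.144% of all genes passed as higher and 0.16% as lower. None passed for the line, where 0.16% passed as higher and 0.463% as lower. At an unadjusted p under 0.05, 3 of 43 members passed for each term, against 583 and 603 of all genes. The lowest adjusted p of a member in the limma fit was 0.271 for LIF (Eif2s2) and 0.124 for the line (Eef1a2).

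**Figure D2:**
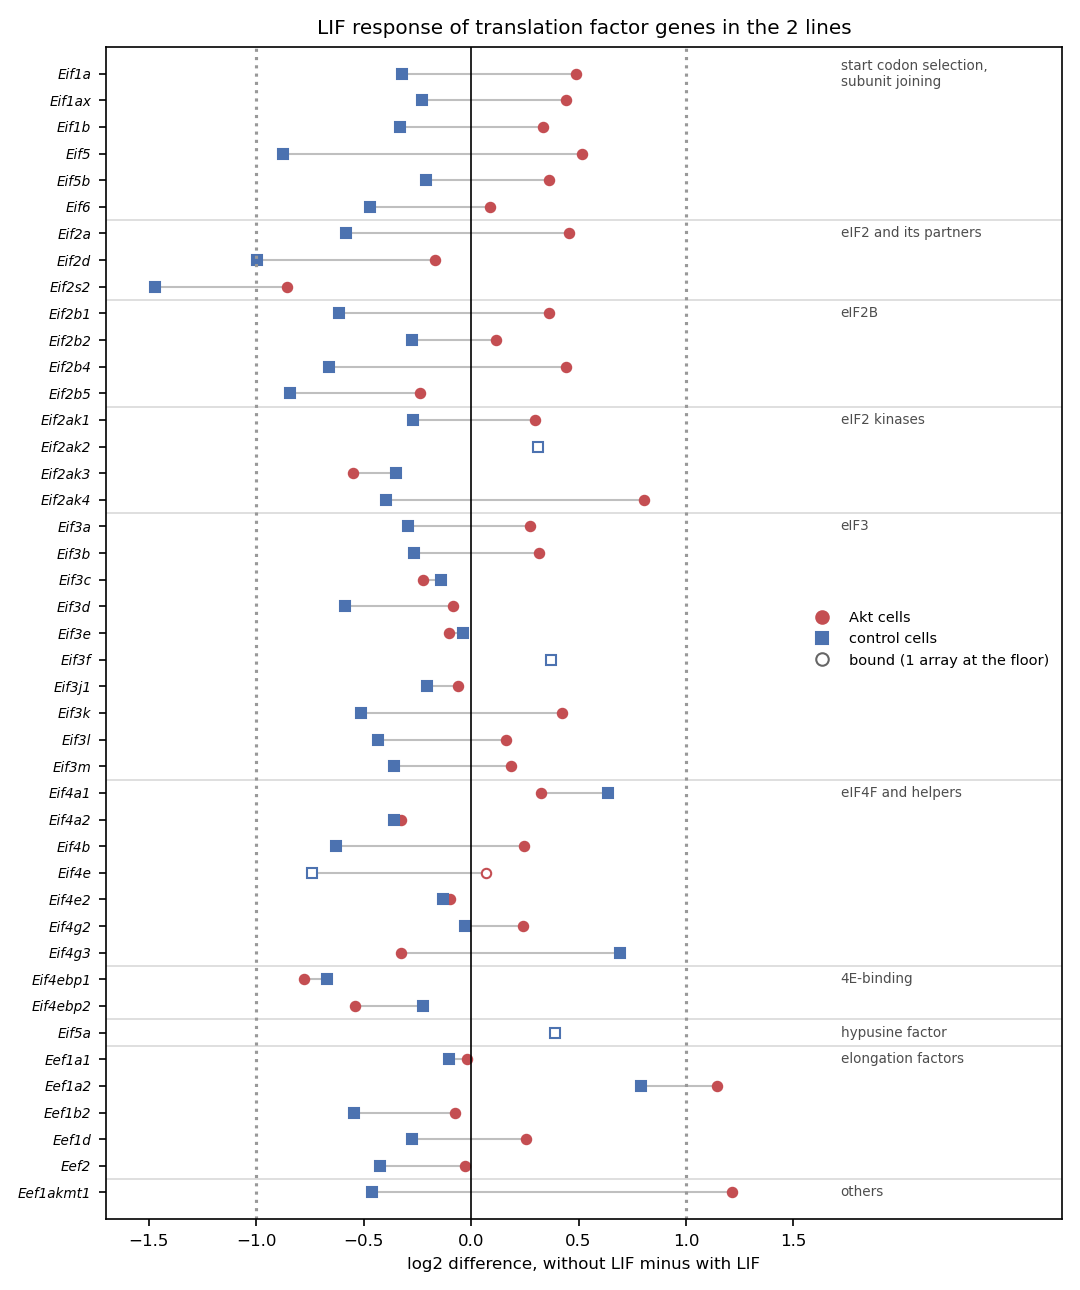
Log2 difference between the arrays without and with LIF (horizontal axis) for each of the 43 members that exceeded the floor anywhere, grouped by role down the page. Red circles are Akt cells and blue squares control cells, open symbols are bounds with 1 array at the floor, and dotted lines mark 2-fold. With quantile normalization, all 6 factors of start codon selection and subunit joining lie right of 0 in Akt cells and left of 0 in control cells.

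The 6 factors of start codon selection and subunit joining shared a sign within each line. Eif1a, Eif1ax and Eif1b encode scanning factors, Eif5 the protein that makes eIF2 hydrolyse GTP, Eif5b the GTPase that joins the large subunit, and Eif6 a protein that keeps the subunits apart. With quantile normalization all 6 were above 0 after LIF withdrawal in Akt cells, with log2 differences of 0.09 to 0.51. All 6 were below 0 in control cells, at -0.88 to -0.21. Eif5 had an intensity of 302 without and 212 with LIF in Akt cells, against 241 without and 442 with LIF in control cells. Control cells with LIF thus had the highest value of Eif5, and Akt cells with LIF were 2.09-fold lower than control cells with LIF. Eif1ax had intensities of 626 without and 460 with LIF in Akt cells, against 505 without and 591 with LIF in control cells. Its lowest value was in Akt cells with LIF and its highest in Akt cells without. A second probe set of Eif5b was at a log2 difference of -1.04 between Akt and control cells with LIF, where the one standing for the gene was at -0.41.

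The eIF2 group had the members furthest below 0 in control cells. eIF2 is the GTPase that carries the initiator tRNA, and Eif2s2 encodes its beta subunit. Eif2s2 had an intensity of 369.5 without and 670 with LIF in Akt cells, against 142 without and 393 with LIF in control cells. Its level was lower without LIF in both lines and higher in Akt cells in both media. It was 1.81-fold lower after LIF withdrawal in Akt cells and 2.78-fold lower in control cells, and Akt cells were 2.61-fold higher than control cells without LIF and 1.70-fold higher with LIF. In the limma fit the LIF term was -1.17 (SE 0.34, adjusted p = 0.271) and the line term 1.08 (SE 0.34, adjusted p = 0.264). A second, dim probe set of Eif2s2 read 15.8 (the floor), 44.6, 20.8 and 15.8 (the floor) in the same array order. It followed the first probe set in Akt cells and not in control cells.

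Eif2d encodes a factor that can place tRNA on the ribosome without GTP. It had intensities of 244 without and 274 with LIF in Akt cells, against 119.9 without and 239 with LIF in control cells. Control cells lacking LIF stood apart for Eif2d. Akt cells were 2.03-fold higher than control cells without LIF, and LIF withdrawal in control cells went with a value just under 2-fold lower. Its second probe set was at the floor on all 4 arrays. Eif2a, which encodes an alternative carrier of initiator tRNA, had intensities of 542 without and 396.0 with LIF in Akt cells, against 314 without and 471 with LIF in control cells. It was higher without LIF in Akt cells (log2 difference 0.45) and lower without LIF in control cells (-0.58).

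eIF2B recharges eIF2 with GTP, and 4 of its subunit genes were measured. After LIF withdrawal 3 of the 4 were above 0 in Akt cells, with a median log2 difference of 0.24, and all 4 were below 0 in control cells, with a median of -0.64. Eif2b1, which encodes the alpha subunit, had intensities of 536 without and 417 with LIF in Akt cells, against 297 without and 455 with LIF in control cells. Control cells without LIF were the lowest for Eif2b1, and Akt cells without LIF the highest. Eif2b5, the catalytic epsilon subunit, was at -0.24 in Akt cells and -0.84 in control cells, and a second probe set gave -0.36 and -0.37. Eif2b2 was the member of this group nearest to 0, at 0.12 in Akt cells and -0.27 in control cells. No eIF2B gene passed 2-fold in any of the 4 comparisons, where 3.01% to 8.12% of all genes passed in each direction.

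The eIF2 kinase genes read near the floor and did not move as a group. Eif2ak1, the heme-regulated kinase, had intensities of 59.7 without and 48.5 with LIF in Akt cells, against 56.2 without and 67.8 with LIF in control cells. Those values lay within 1.40-fold of each other. Eif2ak3 (PERK, which senses unfolded proteins in the endoplasmic reticulum) was at -0.55 in Akt cells and -0.35 in control cells after LIF withdrawal. Eif2ak4 (GCN2, which senses missing amino acids) was at 0.80 and -0.39, with all intensities between 21.2 and 36.9. Eif2ak2 (PKR, which senses double-stranded RNA) was above the floor only in control cells without LIF, at 19.6.

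The 10 genes of eIF3, the scaffold that holds the small subunit and the mRNA, had no 2-fold difference in any comparison. Of all genes, 3.01% to 8.12% passed 2-fold in each direction of these comparisons. After LIF withdrawal the log2 differences of the eIF3 genes spanned -0.23 to 0.42 in Akt cells over 9 genes, with a median of 0.16. In control cells they spanned -0.59 to 0.37 over 10 genes, with a median of -0.28. Eif3c had intensities of 1314 without and 1538 with LIF in Akt cells, against 1170 without and 1287 with LIF in control cells. For Eif3c the array without LIF was slightly below that with LIF in both lines. Eif3e was flatter still, between 613 and 658 on all 4 arrays, whereas Eif3k was at 0.42 in Akt cells and -0.51 in control cells. Eif3d was the eIF3 gene furthest below 0 in control cells, at -0.59. Eif3f was above the floor only in control cells without LIF, at 20.4, too near the floor to show where the gene is expressed.

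The eIF4F genes, whose products bind the cap and unwind the leader of the mRNA, moved in both directions. Of 7 measured, 4 were above 0 and 3 below after LIF withdrawal in Akt cells, with a median of 0.07. In control cells 2 were above and 5 below, with a median of -0.13. Eif4g3 encodes a scaffold of eIF4F. It had intensities of 86.9 without and 108.9 with LIF in Akt cells, against 234 without and 145 with LIF in control cells. Both Akt arrays were below both control arrays, and Akt cells were 2.70-fold lower than control cells without LIF, the opposite sign to most members. The line term of Eif4g3 in the limma fit was -0.92 (SE 0.36, adjusted p = 0.413).

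Eif4a1 and Eif4a2 encode near-identical helicases. Eif4a2 had intensities of 815 without and 1022 with LIF in Akt cells, against 877 without and 1126 with LIF in control cells, lower without LIF in both lines. Eif4a1 went the other way, at 0.32 in Akt cells and 0.64 in control cells, read by 1 probe set whose suffix (_r_at) marks relaxed design rules. Eif4b, which stimulates the helicase, was at 0.25 in Akt cells and -0.63 in control cells, and a second probe set gave 0.38 and -0.49. Eif4e, the cap-binding protein, was near the floor, at 16.6 in Akt cells without LIF, 26.4 in control cells with LIF and the floor on the other arrays. With LIF it was thus at least 1.67-fold lower in Akt than in control cells, at intensities so near the floor that little can be read from it. Eif4e2, a cap-binding relative that represses translation, spanned 98.3 to 130 over the 4 arrays, and Eif4g2, a scaffold without an eIF4E site, spanned 183 to 216.

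The 4E-BP genes encode the proteins through which mTORC1 controls eIF4E, and 2 of them are on the array with a gene of their own. Eif4ebp1 had intensities of 488 without and 837 with LIF in Akt cells, against 386 without and 615 with LIF in control cells. Eif4ebp2 had intensities of 520, 756, 407 and 475 in the same order. By these probe sets Akt cells with LIF were the highest and control cells without LIF the lowest for both genes, and within each line the array without LIF was below the array with LIF. Eif4ebp1 was 1.71-fold lower after LIF withdrawal in Akt cells and 1.59-fold lower in control cells, while Akt cells were 1.26-fold higher than control cells without LIF and 1.36-fold higher with LIF.

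Their difference of responses between the lines was -0.11 for Eif4ebp1 and -0.32 for Eif4ebp2, whereas 33 of 40 members had a positive one. Eif4ebp2 differed by 1.45-fold (lower) in Akt cells and 1.17-fold (lower) in control cells. The limma LIF term was -0.72 for Eif4ebp1 (SE 0.32, adjusted p = 0.534) and -0.38 for Eif4ebp2 (SE 0.32, adjusted p = 0.887). Another probe set of Eif4ebp2 read 199.9 without and 269 with LIF in Akt cells, against 259.8 without and 235 with LIF in control cells. By it Akt cells without LIF were the lowest, and the difference between Akt and control cells without LIF was -0.38, where the probe set standing for the gene gave 0.35 and the mean of the gene's probe sets -0.0085. The direction of Eif4ebp2 between the lines without LIF thus depends on the probe set. One more probe set was at the floor throughout.

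Neither 4E-BP gene passed 2-fold in any comparison with quantile normalization, where 3.01% to 8.12% of all genes passed in each direction. Akt cells with LIF were 1.59-fold higher than control cells with LIF for Eif4ebp2. With the probe sets standing for them, both genes exceeded the SD between probe sets for LIF withdrawal in Akt cells (SD 0.38). Both also exceeded it for Akt against control cells with LIF (SD 0.39), and neither did without LIF (SD 0.45). For LIF withdrawal in control cells (SD 0.46) Eif4ebp1 exceeded it and Eif4ebp2 did not. The other Eif4ebp2 probe set above the floor gave -0.43 for LIF withdrawal in Akt cells, past the SD. For Akt against control cells with LIF it gave 0.20, within the SD. The mean of the Eif4ebp2 probe sets gave -0.32 and 0.29 in these comparisons, both within the SD. With values as deposited, Eif4ebp1 was at -0.13 for Akt against control cells with LIF.

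**Figure D3:**
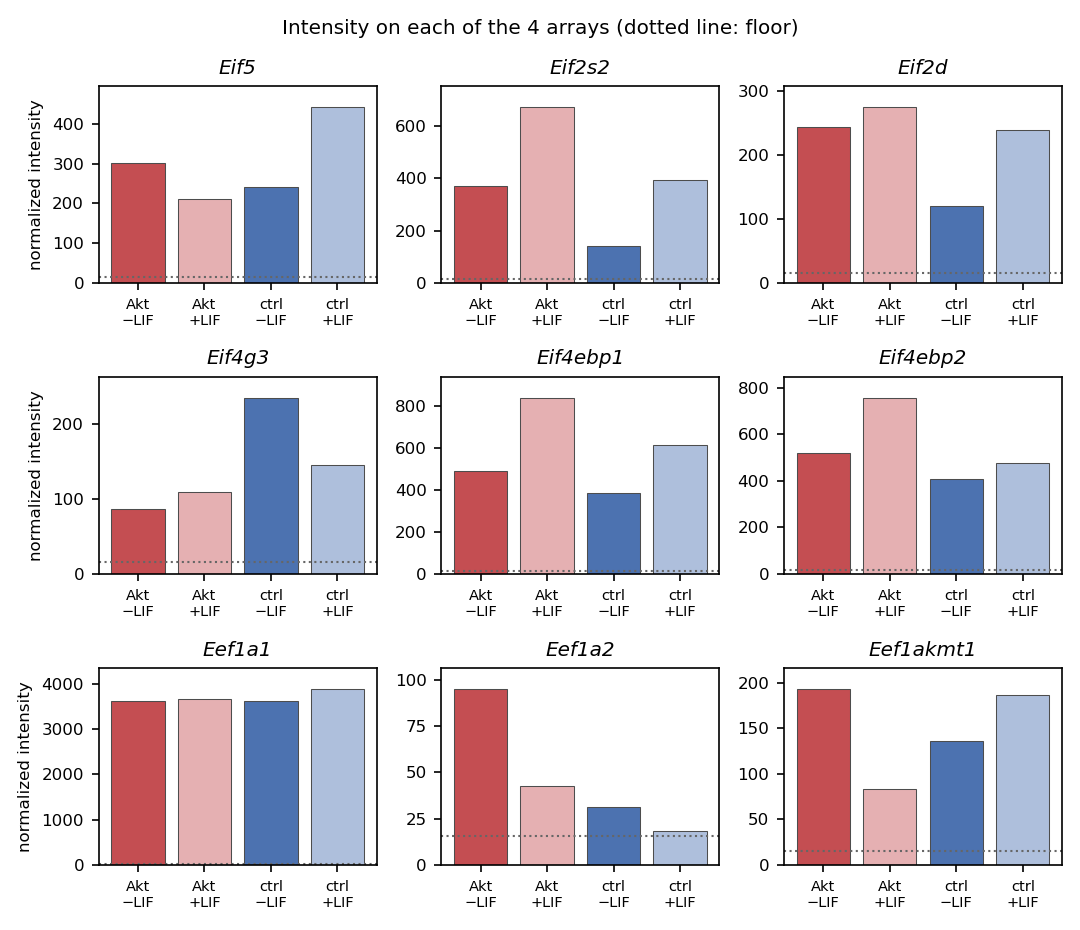
Normalized intensity (vertical axis, linear from 0) of 9 named members on each array, with Akt cells without and with LIF left of control cells without and with LIF. Each bar is 1 array, so there are no error bars, and the dotted line is the floor of 15.8. Eef1a2 is highest in Akt cells without LIF at 94.9, Eef1a1 is level, and Eif4ebp1 and Eif4ebp2 peak in Akt cells with LIF.

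Among the elongation factors the near-identical pair Eef1a1 and Eef1a2 behaved differently. Both encode eEF1A, which delivers tRNAs to the ribosome, Eef1a1 in nearly all cells and Eef1a2 mainly in muscle and neurons, and hybridization of one gene's RNA to the other's probes was not tested. Eef1a1 had intensities of 3625 without and 3668 with LIF in Akt cells, against 3616 without and 3882 with LIF in control cells. Its values lay within 1.07-fold of each other. Eef1a2 had intensities of 94.9, 42.9, 31.3 and 18.1 in the same order. Both Akt arrays were above both control arrays, and in each line the array without LIF was above that with LIF. Akt cells were 3.03-fold higher than control cells without LIF and 2.36-fold higher with LIF. LIF withdrawal went with a 2.21-fold higher value in Akt cells and a 1.73-fold higher one in control cells. In the limma fit the line term of Eef1a2 was 1.42 (SE 0.33, adjusted p = 0.124) and the LIF term 0.97 (SE 0.33, adjusted p = 0.373). When only genes above the floor on every array were fitted, the line term of Eef1a2 passed, with an adjusted p of 0.0205 in limma. In that fit 135 of 5027 genes passed in all, against 39 of 6258. It gave every gene the same variance, so its p-values carry no spread of the single gene. Eef1a2 was also near the floor in control cells with LIF. With a floor at the 60th percentile, its log2 difference between Akt and control cells without LIF was 0.99, against 1.60 as reported.

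Eef2, whose product moves the ribosome along the mRNA, had log2 differences of -0.03 in Akt cells and -0.43 in control cells after LIF withdrawal. Eef1b2 and Eef1d, exchange factors of eEF1A, were at -0.07 and 0.25 in Akt cells and at -0.54 and -0.27 in control cells. Eef1akmt1 encodes a methyltransferase that modifies eEF1A. It had intensities of 193 without and 83.4 with LIF in Akt cells, against 136 without and 187 with LIF in control cells. Akt cells with LIF were the low array for Eef1akmt1, 2.32-fold below Akt cells without LIF and 2.24-fold below control cells with LIF. Eif5a, whose product helps the ribosome through difficult peptide bonds, was above the floor only in control cells without LIF, at 20.7. That reading is so near the floor that it does not show where the gene is expressed.

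Promoter sequences are shown for Eef1a1, Eef1a2 and Eif2s2, which had contrasting patterns. Those of Eef2, Eif1b and Eif3k are shown as stretches that hold an E-box. The sequences shown are thus no sample of the members. The RefSeq table of build GRCm38.p6 held windows of 300 bases (250 before the annotated start and 50 from it on) for 39 of the 47 members. Shown are 80 bases, 60 before the start and 20 from it on, 5′ to 3′ on the gene's strand. Capitals mark an E-box (CACGTG) or a pyrimidine run at the start (a C followed by at least 4 C or T, beginning within 3 bases of the annotated start), as in the 5′ terminal pyrimidine mRNAs whose translation mTORC1 controls.
Eef1a1, level on all arrays, chr9:78481705-78481784, minus strand: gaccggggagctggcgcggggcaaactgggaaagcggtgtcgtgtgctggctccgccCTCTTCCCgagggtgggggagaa
Eef1a2, highest in Akt cells without LIF, chr2:181156996-181157075, minus strand: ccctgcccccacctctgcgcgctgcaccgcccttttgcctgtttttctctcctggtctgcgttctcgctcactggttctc
Eef2, chr10:81176571-81176650, plus strand: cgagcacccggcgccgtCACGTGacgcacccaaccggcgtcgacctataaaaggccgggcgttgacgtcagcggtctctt
Eif1b, chr9:120492546-120492625, plus strand: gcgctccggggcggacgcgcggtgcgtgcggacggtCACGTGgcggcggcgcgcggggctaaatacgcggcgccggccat
Eif3k, chr7:28981869-28981948, minus strand: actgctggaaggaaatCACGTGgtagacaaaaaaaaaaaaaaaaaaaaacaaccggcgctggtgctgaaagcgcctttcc
Eif2s2, lowest in control cells without LIF, chr2:154892887-154892966, minus strand: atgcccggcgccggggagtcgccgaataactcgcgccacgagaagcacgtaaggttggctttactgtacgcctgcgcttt

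The E-box CACGTG, which Myc and related factors bind, was found in a window of 10 of 39 members (25.6%) and of 753 of 6576 array genes (11.5%). Members had more G and C in these windows than array genes had, 62.8% against 59.5%. Members with an E-box had a median log2 difference after LIF withdrawal of 0.30 in Akt cells over 6 genes and -0.31 in control cells over 8 genes. Those without had 0.12 over 27 genes and -0.35 over 28 genes. The E-box and E-box-free members thus had medians of the same sign in each line, but not like counts below 0. In Akt cells 1 of 6 with an E-box and 13 of 27 without were below 0. In control cells 5 of 8 with an E-box and 25 of 28 without were. Of those with an E-box, Eif3f, Eif5a and Eif4e had only bounds near the floor in control cells. The difference between the 2 sets was not tested. A pyrimidine run at the start was found in 6 members (15.4%) and in 14.9% of array genes. The composite site of ATF4 and C/EBP proteins (TGATGNAAN) was in 1 member (Eef2k) and in 2.98% of array genes, and a forkhead site (TGTTTAC) in 0 members and 3.28% of array genes. A TATA box (TATAAA) was in 3 members (7.69%) and in 12.2% of array genes. Both strands were searched for these motifs except the pyrimidine run, and a match is a description of letters and not of binding.

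Of 38 genes listed for the mTORC1 pathway 23 are on the array, and 22 exceeded the floor somewhere, with median log2 differences between -0.04 and 0.04 in the 4 comparisons. Ddit4, which encodes an inhibitor of mTORC1, had intensities of 1108 without and 900.5 with LIF in Akt cells, against 533 without and 339 with LIF in control cells. It was 2.08-fold higher in Akt than in control cells without LIF and 2.66-fold higher with LIF. Mknk1, a kinase of eIF4E, had intensities of 17.0, 73.7, 15.8 (the floor) and 63.7 in the same order. In all, 2 of 22 were 2-fold lower and none higher after LIF withdrawal in Akt cells (3.65% and 3.01% of all genes), and 3 were lower and none higher in control cells (6.4% and 7.39%). Akt cells had 2 higher and none lower than control cells without LIF (5.87% and 8.12%), and 1 higher and 1 lower with LIF (3.5% and 3.64%). Mknk1 was 4.34-fold lower without LIF in Akt cells and at least 4.04-fold lower in control cells. Rps6kb2, an S6 kinase gene, was 2.57-fold lower without LIF in Akt cells (18.2 against 46.8). Sesn1, a sestrin gene, was 2.69-fold lower without LIF in control cells (22.5 against 60.5). Akt2 was at least 2.13-fold lower after LIF withdrawal in control cells, and with LIF at least 2.13-fold lower in Akt than in control cells (each the floor against 33.6). The lower readings of Rps6kb2, Sesn1 and Akt2 lay near or at the floor, which limits what these folds show. Sesn1 was 2.37-fold higher in Akt than in control cells without LIF.

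Genes of the eIF2 and ATF4 branch were mostly higher in Akt than in control cells with LIF (16 of 17 measured, against 3010 of 5938 genes). Of these, 8 were at least 2-fold higher and none 2-fold lower, with a median log2 difference of 0.99, where 3.5% of all genes were 2-fold higher. After LIF withdrawal in Akt cells 6 of 17 were at least 2-fold lower and none 2-fold higher, with a median of -0.79, where 3.65% and 3.01% of all genes were. Both counts rest on the same array of Akt cells with LIF. Atf4 itself had intensities of 199 without and 458 with LIF in Akt cells, against 217 without and 232 with LIF in control cells. Atf5, a transcription factor gene induced in this response, had 35.3, 252, 36.8 and 33.9 in the same order, and Trib3, a pseudokinase gene, had 27.5, 182, 15.8 (the floor) and 30.3. For Atf4, Atf5 and Trib3 the array of Akt cells with LIF stood apart.

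Eif4ebp1 is known as a target of ATF4, and its highest value was on the same array, but a link between them was not tested. In control cells the ATF4 targets did not move together after LIF withdrawal. Of 15 measured there, 2 were at least 2-fold higher and none 2-fold lower, with a median of -0.10, where 7.39% and 6.4% of all genes were. Those 2 were Atf3 (4.94-fold higher) and Cebpb (2.91-fold higher), transcription factor genes that also respond to other signals. Cebpb was also 5.45-fold higher in Akt than in control cells with LIF, and Atf3 was 2.90-fold lower in Akt than in control cells without LIF. Also 2-fold different in some comparison were Asns, Psat1 and Mthfd2, enzyme genes of amino acid and folate metabolism, and Herpud1, Ddit3 and Nupr1. Asns, Mthfd2, Herpud1, Ddit3 and Nupr1 were higher in Akt than in control cells with LIF, by 2.05-fold, 2.35-fold, 2.30-fold, at least 5.20-fold and at least 16.0-fold. Psat1 was 2.37-fold higher in Akt than in control cells without LIF.

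The scale set the absolute value of the members' shift. Scaling to the hybridization controls multiplies all values of an array by a constant factor, which adds the same log2 amount to every gene. The members' shift relative to all genes therefore cannot differ between such scalings and the deposited values, apart from effects of the floor. Only the step from quantile normalization to a constant factor could change it. Scaled to the hybridization controls, the members' median after LIF withdrawal was -0.15 in Akt cells and -0.65 in control cells. The median of all genes then moved to -0.31 and -0.28. Relative to all genes the members were 0.16 above in Akt cells and 0.37 below in control cells under that scaling, against 0.16 above and 0.30 below with quantile normalization. The sign of the members' own median in Akt cells therefore depends on the scaling.

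**Figure D4:**
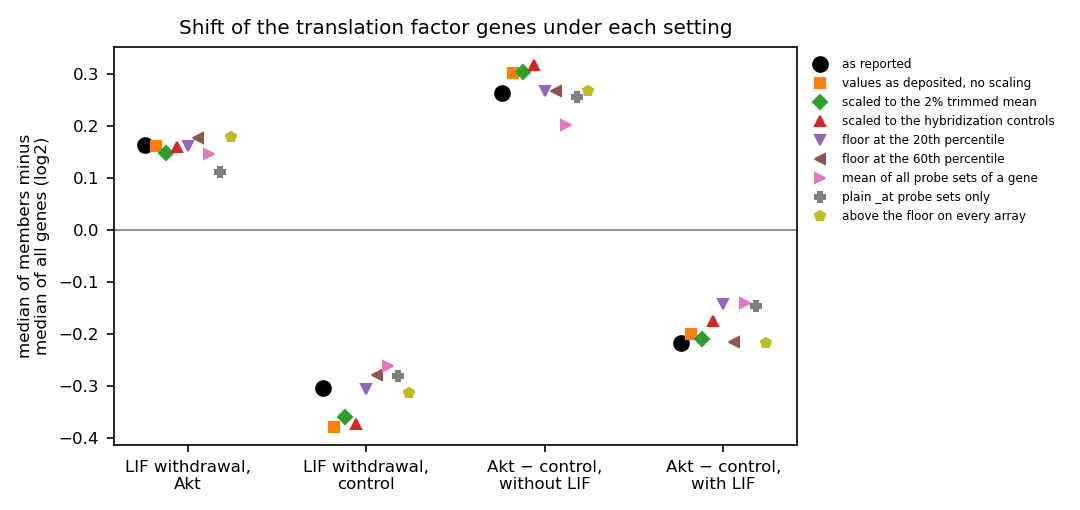
Median log2 difference of the members minus that of all genes (vertical axis) in the 4 comparisons (horizontal axis), under the reported setting (black circle) and 8 other scalings, floors and choices of probe set (coloured symbols). The value lies between 0.11 and 0.18 for LIF withdrawal in Akt cells and between -0.38 and -0.26 in control cells. Deposited values and scalings by a constant factor per array cannot differ from each other here, apart from effects of the floor. They are therefore not separate checks.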

How the data were processed

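The deposited table holds 1 intensity per probe set for each of 4 arrays of total RNA, on a linear scale. The labels and file headers do not say which software the authors used for these intensities or how they scaled them. The 2% trimmed means were 79.9, 81.2, 97.3 and 121 (Akt without, Akt with, control without, control with LIF), so values were quantile normalized over 12422 probe sets (66 array controls left out) with limma 3.58.1 in R 4.3.3. Values were floored at their 40th percentile and taken to log2. Platform annotation named 10833 probe sets with 1 gene, and symbols were updated by gene identifier through RefSeq (GRCm38.p6), which held 10817 of them. A difference counted at 2-fold. A pair was measured where at least 1 array was above the floor. The additive limma fit was run on simulated data with equal noise for every gene, no floor and no difference between the lines' LIF responses. That run therefore cannot check the fit where the responses differ. Arrays of 1 group have no replicates, so the number of arrays limits precision. Members, roles and gene lists were chosen with earlier results of these data known. Genes named with all 4 values were those 2-fold different in any comparison, the 4E-binding protein genes and the member of highest mean intensity in each role. Of the mTORC1 and ATF4 lists, genes 2-fold different in any comparison were named. Scaling, floor, probe set choice, filter, fold and eBayes trend were varied. Promoters were searched with Python 3.11.15.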

Additional observations from a re-analysis of the deposited data

Results flagged for a closer look

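With quantile normalization, 4 members had LIF responses of opposite sign in the lines. Each response was beyond the SD between probe sets of 1 gene (0.38 in Akt cells and 0.46 in control cells, log2). All 4 were above 0 in Akt cells and below 0 in control cells, as were 4.5% of all 5671 genes by the same rule. With 1 array per group this contrast between the lines has no test. Eif5 was at 0.51 in Akt cells and -0.88 in control cells, a difference of 1.39. Eif2b4, the delta subunit of eIF2B, was at 0.44 and -0.66, a difference of 1.11. Eif2a was at 0.45 and -0.58, a difference of 1.04. Eif3k was at 0.42 and -0.51, a difference of 0.93. Each of these genes was read by 1 probe set, so the SD comes from other genes. It describes spread between probe sets on the same arrays and not between replicate arrays. Eif5 had the largest of these responses in Akt cells. Scaled to the hybridization controls, Eif5 was at 0.15 in Akt cells, within the SD of 0.38, and at -1.24 in control cells. Values of Eif2b4, Eif2a and Eif3k under that scaling are not given here, so it is not shown that they keep their signs.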

How the results depend on the processing

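Of 254 values of single named members under the alternatives, 14 moved by more than the SD between probe sets and 3 turned sign: Eif4ebp2 in Akt against control without LIF with the mean of probe sets (-0.0085), and Eif2d (-0.35) and Eif4ebp1 (-0.13) with LIF as deposited. Scaled to the hybridization controls, the members' median turned negative for LIF withdrawal in Akt cells, at -0.15, and was -0.65 in control cells, 0.40 for Akt against control without LIF and -0.071 with LIF. With values as deposited the last 3 were -0.64, 0.072 and -0.72, and the difference of responses was 0.83. With the mean of all probe sets, Akt against control was 0.26 without LIF and -0.13 with LIF, and the difference of responses 0.41. With LIF it was -0.14 with a floor at the 20th percentile and -0.14 with plain probe sets only. For LIF withdrawal in Akt cells, hybridization controls turned the 2-fold calls from 2 higher and 0 lower into 0 higher and 2 lower. Members past 2-fold numbered 1 for LIF withdrawal in Akt cells (2 reported) with a floor at the 60th percentile and 1 without the regulators. In control cells (1 reported) they numbered 7 with values as deposited, 7 with hybridization controls, 2 with the lower floor and 0 with the mean of probe sets. For Akt against control without LIF (4 reported) they numbered 7 with the lower floor and 2 with the mean of probe sets, and with LIF (3 reported) 8 as deposited. At 1.5-fold the 4 counts were 5, 13, 10 and 9. Members past an adjusted p of 0.05 for the line (limma, 0 reported) numbered 1 among genes above the floor on every array. That fit gave every gene the same variance. Over all genes the limma calls, 19 for LIF and 39 for the line, spanned 0 to 118 and 0 to 135 over the alternatives. No paired analysis was possible because each group had 1 array, and for the same reason no array could be left out. The cause of these changes was not tested. Values near the floor limit the dim members most.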

Other observations

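Other genes of translation, outside the name rule, had medians of the same sign as the members, and so had all genes. After LIF withdrawal in Akt cells 10 of 17 (release, recycling, cap-binding complex and poly(A)-binding factors among them) were above 0, with a median log2 difference of 0.05. Of all genes 3032 of 5945 were, with a median of 0.01. In control cells 11 of 16 were below 0, with a median of -0.40, where 3099 of 5984 genes were, with a median of -0.03. Dohh, which completes hypusine on eIF5A, had intensities of 123 without and 125 with LIF in Akt cells, against 58.9 without and 146 with LIF in control cells. It was 2.49-fold lower after LIF withdrawal in control cells. Cyfip2, a relative of an eIF4E-binding protein, was 2.18-fold higher there.

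Cytoplasmic ribosomal protein genes stayed nearer to 0. Of 30 listed, 22 were measured in Akt cells and 24 in control cells, with median log2 differences after LIF withdrawal of -0.00 and -0.05. None was 2-fold different in either line. Of all genes, 3.01% were 2-fold higher and 3.65% lower in Akt cells, and 7.39% and 6.4% in control cells. At 1.5-fold, 2 ribosomal protein genes were lower in control cells and none higher, where 17.8% and 16.4% of all genes were. The lowest was at -0.91.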
